A study of Mus musculus with 6 samples.

Results

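Endothelial cells line the vessels of the retina. The 10 genes Pecam1, Esam, Flt1, Cldn5, Kdr, Tek, Cdh5, Vwf, Emcn and Egfl7, which are commonly used to identify them, were followed in RNA-Seq libraries of sorted retinal cells after overexpression of Ezh2-Y726D, an Ezh2 histone methyltransferase without catalytic activity. All 10 were found by symbol among the 32371 genes of the count table, and all 10 were among the 18138 genes kept for testing by the low-count filter of edgeR. The libraries came from C57BL/6J mice, which in this work were adults of both sexes unless stated otherwise. The eyes received AAV2-GFP (control) or AAV2-Ezh2-Y726D intravitreally, optic nerve crush followed 2 weeks later, and living CD90.2-positive cells were sorted 3 days after the crush, with 3 libraries in each group. All 6 libraries thus carry AAV2 and a crushed nerve, and no uninjured or uninjected retina is part of the comparison. The promoter of the vectors and the number of mice behind each library are not given in the sources used here, so that the P values measure the spread between these libraries, which may be partly technical.

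Vessel formation and upkeep rest on a few signaling systems. VEGF-A acts through the receptor tyrosine kinases Kdr (VEGFR2), which transmits most of the growth signal, and Flt1 (VEGFR1), which binds the ligand tightly and also exists as a soluble decoy. Angiopoietins act through Tek (Tie2), and endothelial cells are joined by VE-cadherin (Cdh5), claudin-5 (Cldn5), Pecam1 and Esam, which together with other junction proteins form the inner blood-retina barrier.

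Total counts lay between 9333244 and 23782520 per library. The rRNA gene CT010467.1 took 6.59%, 50.9% and 52.2% of them in GFP replicates 1, 2 and 3 and 2.55% to 16.1% in the Ezh2-Y726D libraries, which left 5745352 and 4460732 other counts in GFP replicates 2 and 3 and at least 15280377 in the rest. Levels are given as CPM, a gene's count relative to the size of its library after TMM scaling, which sets library sizes so that most genes do not differ between libraries. One count was worth 0.129 and 0.166 CPM in those GFP libraries and 0.0338 to 0.0489 CPM in the other 4. Ezh2 was higher in every Ezh2-Y726D library (65.1 to 65.5 CPM) than in every GFP library (22.7 to 26.3 CPM), though the counts do not separate vector from endogenous transcripts. The libraries are labelled retinal ganglion cells. The 12 ganglion cell markers, Rbpms and Thy1 among them, summed to 520 to 532 CPM in GFP and 500 to 537 CPM in Ezh2-Y726D, and 10 Müller glia and astrocyte markers summed to 7975 to 8370 CPM in GFP and 6626 to 6845 CPM in Ezh2-Y726D, so that the sorted cells held RNA of other retinal cell types.

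After Ezh2-Y726D overexpression, Esam, Pecam1 and Kdr were lower, none of the 10 genes was higher, and 7 did not pass the test. A gene was called when its P, taken from the quasi-likelihood test of edgeR and adjusted by the Benjamini-Hochberg method over every tested gene, was under 0.05. Over all 18138 genes, 13.6% were lower and 13.9% higher by the same rule. Flt1 and Vwf were above GFP at an unadjusted P under 0.05 by the edgeR test. The share of all genes at that threshold was not computed, so no rise of the 10 genes is read from it. DESeq2 called 0 of the 10 genes higher. With the study's further threshold of a fold change over 1.5, only Esam remained, and over all genes 5.5% were lower and 2.52% higher by that rule. The median log2 fold change of the 10 genes was -0.02, beside 0.00 for all genes tested. In 6 of the 10 genes the groups did not overlap, as in 38.6% of all genes tested. In these bulk libraries, fewer cells of a type and less RNA per cell cannot be told apart.

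**Figure D1:**
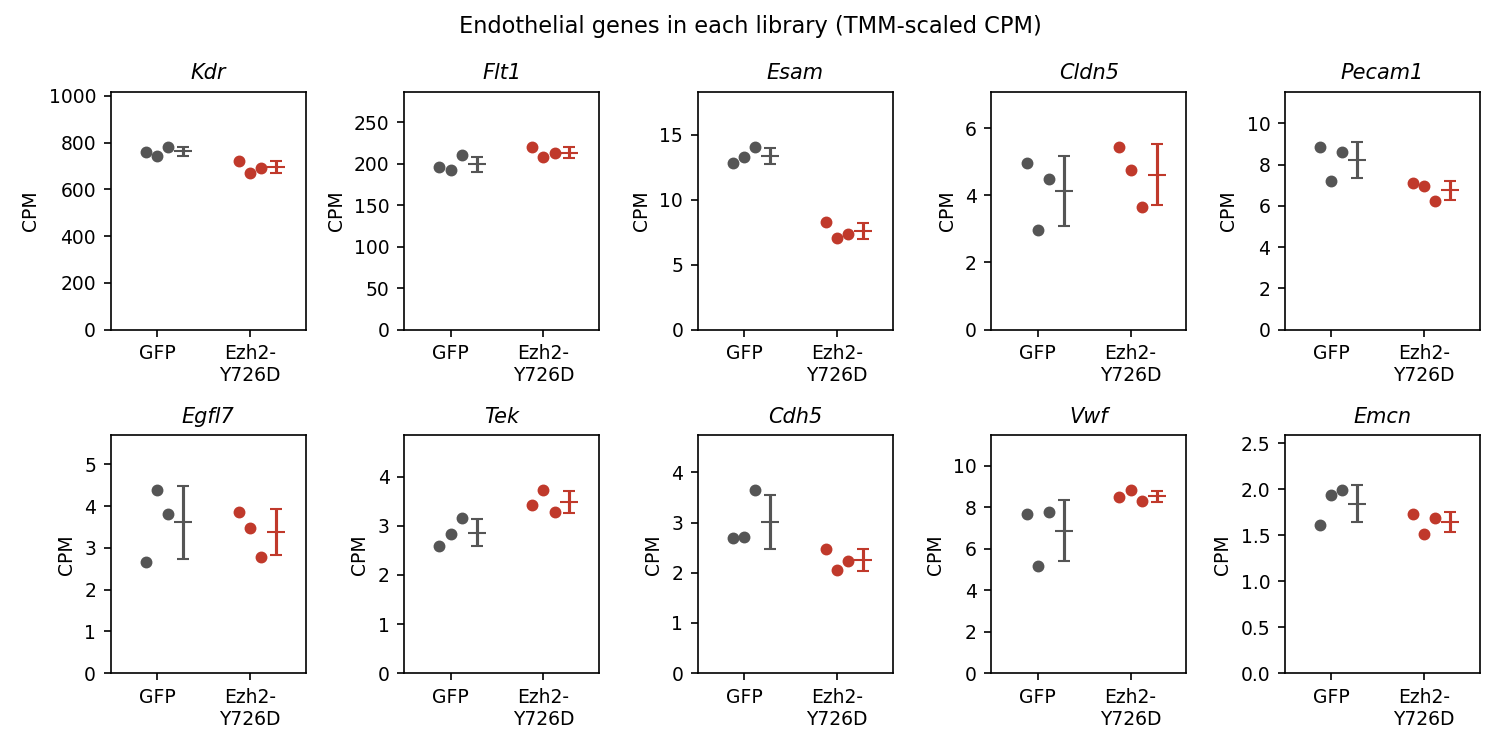
CPM of the TMM-scaled library (vertical axes, each starting at 0) of the 10 endothelial genes in each GFP (grey) and Ezh2-Y726D (red) library, with the mean and SD of the 3 libraries beside the points. Relative to its level, Esam shows the widest separation of the groups, from 12.8 to 14.1 CPM in GFP and from 7.10 to 8.29 CPM in Ezh2-Y726D.

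The 3 receptor tyrosine kinases for vascular growth factors are described first. Kdr (ENSMUSG00000062960) lies on chromosome 5 from 75932827 to 75978458 on the minus strand, Flt1 (ENSMUSG00000029648) on chromosome 5 from 147561604 to 147726011 on the minus strand, and Tek (ENSMUSG00000006386) on chromosome 4 from 94739289 to 94874976 on the plus strand, in GENCODE vM21 on GRCm38. The 250 bases before their RefSeq start sites (GRCm38.p6) are shown because these receptors bind the growth factors that act on endothelial cells and yet stood at very different levels. Capitals mark GGAA or its complement TTCC, the core recognised by ETS factors such as Erg, Fli1 and Ets1, which are known regulators of endothelial genes.
Kdr, chr5:75978456-75978705, minus strand: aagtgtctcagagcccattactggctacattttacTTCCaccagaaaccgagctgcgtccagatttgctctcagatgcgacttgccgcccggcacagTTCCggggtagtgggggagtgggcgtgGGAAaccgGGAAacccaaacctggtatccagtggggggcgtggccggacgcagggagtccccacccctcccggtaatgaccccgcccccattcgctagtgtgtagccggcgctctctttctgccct
Flt1, chr5:147726012-147726261, minus strand: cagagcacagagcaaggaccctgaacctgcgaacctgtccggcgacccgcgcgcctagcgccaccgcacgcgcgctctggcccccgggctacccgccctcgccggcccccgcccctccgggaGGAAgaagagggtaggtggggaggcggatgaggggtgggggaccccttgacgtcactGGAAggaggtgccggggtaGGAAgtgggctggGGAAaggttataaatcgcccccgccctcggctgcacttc
Tek, chr4:94739039-94739288, plus strand: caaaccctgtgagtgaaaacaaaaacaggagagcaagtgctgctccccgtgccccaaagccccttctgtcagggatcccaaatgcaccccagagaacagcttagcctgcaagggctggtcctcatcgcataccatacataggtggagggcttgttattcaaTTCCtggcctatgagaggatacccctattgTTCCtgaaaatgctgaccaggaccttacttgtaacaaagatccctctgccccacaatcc

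The core GGAA was matched 4 times each in the windows of Kdr, Flt1 and Emcn, 2 times in that of Tek, not at all in that of Cldn5, and 5, 3 and 1 times in the 3 windows listed for Egfl7, counting both strands. Of 32851 promoter windows of the same length, 93.4% held this core, with a median of 3 matches. The longer ETS sequence CCGGAAG (in 6.91% of all windows) and the forkhead sequence TGTTTAC (in 3.17%) were in none of these 8 windows, which cover 6 of the 10 genes. The SOX sequence ATTGTTC, held by 2.17% of all windows, occurred once, in the window of Tek, where it overlaps a TTCC. These matches describe letters only.

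Kdr was by far the most abundant of the 10 genes. It was at 762, 743 and 782 CPM in GFP replicates 1, 2 and 3 and at 722, 672 and 691 CPM in Ezh2-Y726D replicates 1, 2 and 3. Every Ezh2-Y726D library lay below every GFP library, by a small step. The mean went from 762 ± 19.5 to 695 ± 25.2 CPM (SD, n = 3 each), a log2 fold change (SE, standard error) of -0.13 (0.0394, 95% interval -0.21 to -0.05, adjusted P = 0.0111 by edgeR quasi-likelihood with Benjamini-Hochberg). This is a decrease of 8.80%. Without Ezh2-Y726D replicate 2, the adjusted P was 0.0758 by the same edgeR test, and without GFP replicates 2 and 3 together, which was tried only once the values were known, it was 0.0545 at a log2 fold change of -0.13.

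Flt1 was the second most abundant gene. Its GFP libraries were at 196, 193 and 210 CPM and its Ezh2-Y726D libraries at 220, 208 and 212 CPM. The groups overlapped through GFP replicate 3. The log2 fold change was 0.10 (SE 0.0415, 95% interval 0.02 to 0.19, adjusted P = 0.0642 by edgeR quasi-likelihood with Benjamini-Hochberg), so that Flt1 did not pass the test, and the interval leaves room for differences of up to 0.19. It passed in 4 of 17 alternative analyses, with adjusted P values from 0.022 to 0.42 over all of them in edgeR and DESeq2. The counts do not separate the membrane-bound from the soluble form.

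Kdr and Flt1 were also compared within each library, where the scaling between libraries drops out. This ratio was chosen after the values were seen. Per length, Kdr stood at 5.83, 5.77 and 5.57 times Flt1 in GFP replicates 1, 2 and 3 and at 4.90, 4.84 and 4.87 times Flt1 in Ezh2-Y726D replicates 1, 2 and 3. All 3 Ezh2-Y726D libraries had the lower ratio of Kdr to Flt1. An exact 2-sided permutation test of 3 libraries against 3 cannot give a P under 0.1 for such a single value.

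Tek was at 2.59, 2.83 and 3.15 CPM in GFP and at 3.42, 3.72 and 3.28 CPM in Ezh2-Y726D. The Ezh2-Y726D libraries were all above the GFP libraries, but GFP replicates 2 and 3 held only 22 and 19 counts of Tek. The log2 fold change was 0.33 (SE 0.176, 95% interval -0.03 to 0.69, adjusted P = 0.174 by edgeR quasi-likelihood with Benjamini-Hochberg). The difference was therefore not larger than the spread the test allows at this depth. Without GFP replicate 1 its log2 fold change was 0.21, and with counts thinned at random to the depth of the shallowest library it was 0.07. All results with thinned counts rest on a single random draw, which adds noise for genes with few counts.

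**Figure D2:**
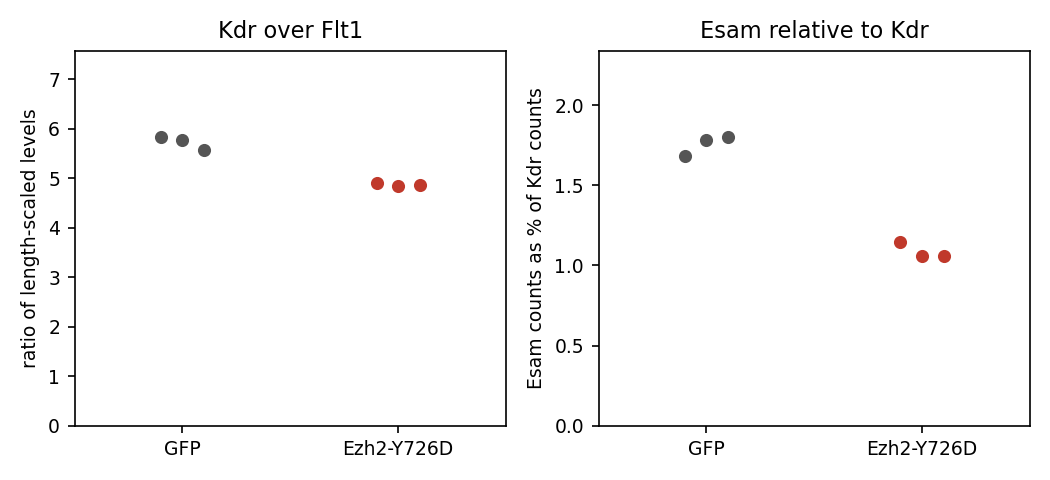
Left, length-scaled level of Kdr divided by that of Flt1 in each library. Right, Esam counts as a percentage of Kdr counts in each library. Points are single libraries, both vertical axes start at 0, and in both panels the 3 Ezh2-Y726D libraries lie below the 3 GFP libraries.

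The junction and adhesion genes held the only change past the fold threshold. Esam, an immunoglobulin-like adhesion molecule of endothelial tight junctions that is also found on platelets (ENSMUSG00000001946, chromosome 9, 37528078 to 37538319), was at 12.8, 13.3 and 14.1 CPM in GFP and at 8.29, 7.10 and 7.34 CPM in Ezh2-Y726D. The highest Ezh2-Y726D library was well below the lowest GFP library. The mean went from 13.4 ± 0.638 to 7.58 ± 0.632 CPM (SD, n = 3 each), a log2 fold change of -0.79 (SE 0.101, adjusted P = 4.29e-07 by edgeR quasi-likelihood with Benjamini-Hochberg), which is a decrease of 42.3%. Esam passed the test with each library left out in turn. Within libraries, its counts were 1.68%, 1.79% and 1.80% of the Kdr counts in GFP and 1.15%, 1.06% and 1.06% in Ezh2-Y726D.

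Pecam1, an adhesion molecule of endothelial junctions, platelets and leukocytes (ENSMUSG00000020717, chromosome 11, 106654217 to 106750628), was at 8.86, 7.21 and 8.61 CPM in GFP and at 7.09, 6.95 and 6.23 CPM in Ezh2-Y726D. The groups did not overlap, although GFP replicate 2 lay just above Ezh2-Y726D replicate 1. Its log2 fold change was -0.33 (SE 0.117, 95% interval -0.57 to -0.09, adjusted P = 0.0371 by edgeR quasi-likelihood with Benjamini-Hochberg). This call was lost without GFP replicate 1 (log2 fold change -0.22, adjusted P = 0.4), without GFP replicate 3 (-0.32, 0.0611), without Ezh2-Y726D replicate 2 (-0.34, 0.0586) and without Ezh2-Y726D replicate 3 (-0.26, 0.178), all in edgeR. DESeq2 gave a similar log2 fold change of -0.30 with an adjusted P of 0.267.

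Cdh5, the adherens junction cadherin that is specific to endothelium (ENSMUSG00000031871, chromosome 8, 104101625 to 104144511), was at 2.70, 2.70 and 3.64 CPM in GFP and at 2.48, 2.06 and 2.23 CPM in Ezh2-Y726D. All Ezh2-Y726D libraries were lower than all GFP libraries, but GFP replicates 2 and 3 held only 21 and 22 counts. The log2 fold change was -0.34 (SE 0.196, 95% interval -0.74 to 0.06), and Cdh5 did not pass the test (adjusted P = 0.225 by edgeR quasi-likelihood with Benjamini-Hochberg). With thinned counts it was at -0.85 with an adjusted P of 0.052, and over the 17 alternatives its adjusted P in edgeR and DESeq2 ranged from 0.052 to 0.847.

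Cldn5, the main claudin of the barrier (ENSMUSG00000041378, chromosome 16, 18776847 to 18778262), was at 4.97, 2.96 and 4.47 CPM in GFP and at 5.44, 4.75 and 3.65 CPM in Ezh2-Y726D. Its groups overlapped widely. The log2 fold change was 0.04 with a 95% interval of -0.31 to 0.40 and an adjusted P of 0.898 by edgeR quasi-likelihood with Benjamini-Hochberg. A change of this gene within that interval was not detectable at this depth.

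Among the secreted and surface glycoproteins, Vwf, the platelet-binding protein that endothelial cells store and megakaryocytes also make (ENSMUSG00000001930, chromosome 6, 125546774 to 125686679), was at 7.67, 5.15 and 7.79 CPM in GFP and at 8.48, 8.81 and 8.29 CPM in Ezh2-Y726D. All Ezh2-Y726D libraries were above the GFP libraries, of which replicate 2 was the lowest. The log2 fold change was 0.25 (SE 0.122, 95% interval 0.00 to 0.50), with an unadjusted P of 0.0465 and an adjusted P of 0.131 by edgeR quasi-likelihood with Benjamini-Hochberg, so that Vwf did not pass. Without GFP replicate 2 its log2 fold change was 0.14, with an adjusted P of 0.426 in edgeR, and without GFP replicate 1 it was 0.43, with one of 0.076.

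Emcn, a sialomucin of capillaries and veins (ENSMUSG00000054690, chromosome 3, 137341067 to 137432185), was at 1.61, 1.93 and 1.99 CPM in GFP and at 1.73, 1.52 and 1.69 CPM in Ezh2-Y726D, from 12 to 50 counts per library. Its groups overlapped, with a log2 fold change of -0.08 (95% interval -0.56 to 0.40, adjusted P = 0.893 by edgeR quasi-likelihood with Benjamini-Hochberg). Without GFP replicate 1 its log2 fold change was -0.24, and it did not pass.

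Egfl7, a matrix protein secreted by endothelial cells (ENSMUSG00000026921, chromosome 2, 26580014 to 26593120), was at 2.66, 4.38 and 3.81 CPM in GFP and at 3.87, 3.47 and 2.78 CPM in Ezh2-Y726D. Its groups overlapped, and its log2 fold change was 0.05 (95% interval -0.35 to 0.45, adjusted P = 0.899 by edgeR quasi-likelihood with Benjamini-Hochberg). The fitted value is above 0 although the mean of the libraries was lower after Ezh2-Y726D (3.37 ± 0.552 against 3.62 ± 0.875 CPM, SD, n = 3 libraries each), because the fit gives deeper libraries more weight. Other genes, among them Agpat2 and the miR-126 genes, overlap 11.2% of the exonic bases of Egfl7, which makes its count uncertain. The other 9 genes share no exonic base with another annotated gene.

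**Figure D3:**
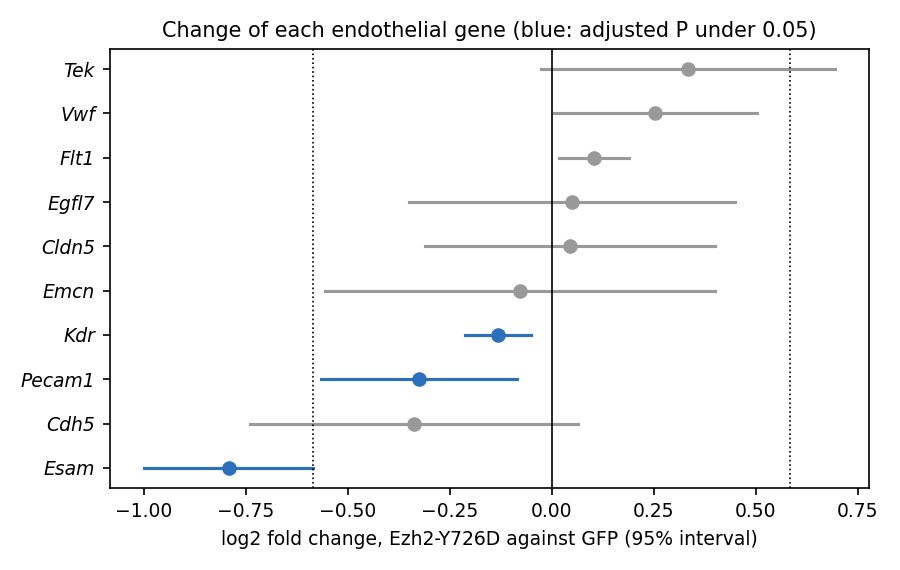
Log2 fold change of each gene after Ezh2-Y726D overexpression relative to GFP, with 95% intervals from edgeR (n = 3 libraries each). Blue marks an adjusted P under 0.05, grey the other genes, and dotted lines a fold change of 1.5 in either direction. Only the point of Esam lies beyond a dotted line.

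The 10 genes did not share a common level. Levels of different genes are compared here as CPM divided by the exonic length in kilobases (RPKM), averaged over all 6 libraries. Kdr was at 80.7 RPKM and Flt1 at 15.3 RPKM, and the ranges of their libraries did not touch. Esam (3.66 RPKM) and Cldn5 (3.09 RPKM) followed, and both stood clear of Pecam1 (1.20 RPKM). The ranges of Esam and Cldn5 overlapped only over both groups pooled or within Ezh2-Y726D, where the means were 2.64 RPKM for Esam and 3.26 RPKM for Cldn5. In GFP, Esam (4.47 to 4.91 RPKM) lay above Cldn5 (2.09 to 3.51 RPKM) in every library. In Ezh2-Y726D, Cldn5 lay above Esam in every library, though in replicate 3 only at 2.58 against 2.56 RPKM. From Pecam1 over Egfl7 (0.976 RPKM), Tek (0.672 RPKM), Cdh5 (0.627 RPKM) and Vwf (0.479 RPKM) to Emcn (0.322 RPKM), each gene's range overlapped that of the next over both groups pooled. Within the groups some neighbours were apart. Egfl7 lay above Tek within every library of both groups, though their ranges overlapped in Ezh2-Y726D. In GFP, Cdh5 lay above Vwf in every library, and the mean of Cdh5 (0.717 RPKM) was above that of Tek (0.606 RPKM). In Ezh2-Y726D, Tek lay above Cdh5 and Vwf above Emcn in every library. Exonic lengths are those of all annotated transcripts of a gene together, so that these levels are approximate.

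**Figure D4:**
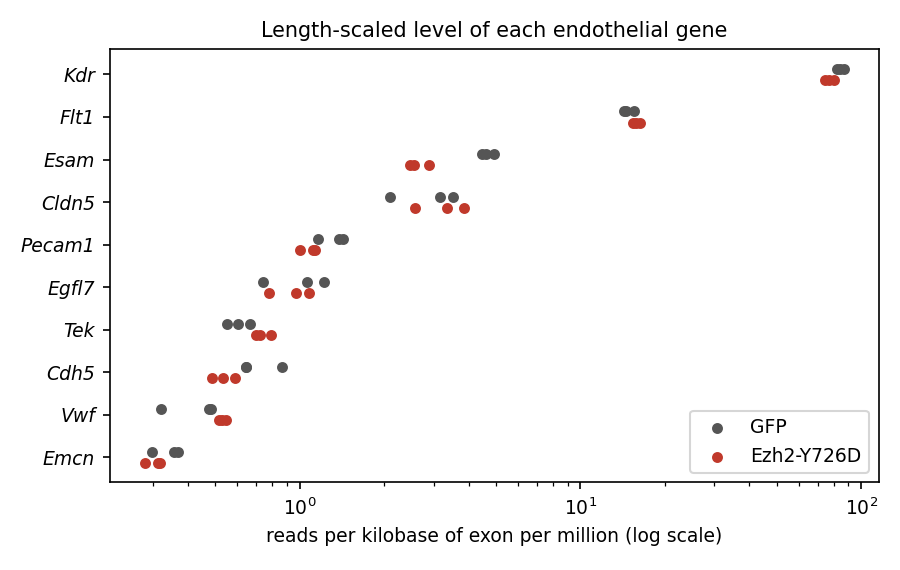
Length-scaled level of each gene in each library (horizontal log axis, RPKM), ordered by the mean over the 6 libraries, GFP in grey and Ezh2-Y726D in red. Kdr and Flt1 stand apart to the right, and the 6 lowest genes form an overlapping series.

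Within each library, the RPKM of Kdr was 99.9 to 152 times that of Cdh5, and the RPKM of Flt1 was 17.9 to 31.5 times that of Cdh5. Kdr is known in retinal neurons and Flt1 in monocytes besides the endothelium, and the source of these transcripts was not tested. Kdr and Flt1 together took 95.4% to 96.2% of the summed CPM of the 10 genes. This sum was 1001, 976 and 1040 CPM in GFP and 983, 918 and 939 CPM in Ezh2-Y726D, and the groups overlapped. The sum of the other 8 genes was 40.4 to 47.5 CPM in GFP and 35.5 to 40.8 CPM in Ezh2-Y726D. Without Esam, the remaining 7 genes summed to 27.2 to 33.5 CPM in GFP and 28.2 to 32.5 CPM in Ezh2-Y726D, so that the Ezh2-Y726D range lay within that of GFP.

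The genes whose log2(CPM + 1) followed the summed level of the 10 genes most closely over the 6 libraries were Vcl, Mrpl12, Rab15, Tril and Plscr2, with Pearson's r from 0.982 to 0.989. Other genes overlap part of the exons of Vcl, Mrpl12 and Tril. These values are a description over 6 libraries that share scaling and group, and the sum itself is mostly Kdr (r = 0.971 with the sum). Cdh5 had an r of 0.946 with the sum, Esam one of 0.839 and Pecam1 one of 0.808, whereas Flt1 had one of -0.11 and Tek one of -0.57.

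Further endothelial genes were looked at as a list of 33, of which 28 were tested. Of these, 4 were higher and 6 lower at an adjusted P under 0.05, beside 13.9% and 13.6% of all genes, and the median log2 fold change was -0.07. The 3 largest falls were in Cd93, a lectin-like receptor that myeloid cells also carry (log2 fold change -1.64, SE 0.0873), Pltp, a phospholipid transfer protein (-1.40, SE 0.0891), and Ly6a, which is also found on leukocytes (-1.16, SE 0.0643). Cd93 was at 22.7, 24.0 and 23.4 CPM in GFP and at 7.43, 6.80 and 7.92 CPM in Ezh2-Y726D, so that its groups were far apart. The ETS factors Ets1 and Fli1 and the transcription cofactor Lmo2, which blood cells share with endothelium, were the other genes that fell, with log2 fold changes of -0.91, -0.80 and -0.60.

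The endothelial genes that rose were Clec14a (log2 fold change 0.74, SE 0.185), a C-type lectin of endothelium, Plvap (0.50, SE 0.133), the diaphragm protein of fenestrated vessels, Arhgef15 (0.38, SE 0.0789), an exchange factor that neurons also express, and Cd34 (0.37, SE 0.125). Clec14a was at 2.77, 1.55 and 3.48 CPM in GFP and at 4.84, 4.26 and 4.06 CPM in Ezh2-Y726D. Its rise, with an adjusted P of 0.00291 by edgeR quasi-likelihood with Benjamini-Hochberg, thus had the opposite sign to the fall of Esam in the same libraries. GFP replicates 2 and 3 held only 12 and 21 counts of Clec14a. The endothelial transcription factors Erg and Sox17 were at or under 0.846 CPM in every library and did not pass the test. Podxl, a sialomucin that with Ets1 and Ly6a had the highest CPM of the list before scaling by length, was at 45.2 ± 2.48 and 44.1 ± 3.67 CPM (SD, n = 3 each) and did not pass. Of the 5 genes not tested, Sox18 had at most 28 counts in a library and Mmrn1 at most 1.

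Ligands and partners of the receptors were followed as a list of 27 genes of VEGF, angiopoietin and Notch signaling, 25 of them tested. Of these, 4 were higher and 6 lower, with a median of -0.09, beside 13.9% higher and 13.6% lower over all genes. Among the ligands, Vegfa rose from 98.3 ± 2.23 to 113 ± 1.1 CPM (SD, n = 3 each), a log2 fold change of 0.21 (SE 0.0418, adjusted P = 2.95e-04 by edgeR quasi-likelihood with Benjamini-Hochberg). Pgf, a ligand of Flt1, rose by 0.44 (SE 0.117) and Angpt1, the activating ligand of Tek, by 0.37 (SE 0.121) on the log2 scale. Angpt2, its context-dependent antagonist, was at 5.16 ± 0.719 CPM in GFP and 4.56 ± 0.309 CPM in Ezh2-Y726D (SD, n = 3 each) and did not pass. The VEGF co-receptor Nrp1 fell, with a log2 fold change of -0.23 (SE 0.0566), and so did the Notch ligand Jag1 (-0.29, SE 0.0632), the junction regulator Heg1 (-0.27, SE 0.0526) and Angptl4 (-0.76, SE 0.253). Tie1 and Ptprb, which modulate Tek at the membrane, had log2 fold changes of -0.17 and -0.08 and did not pass. Ctnnb1, Cdh2 and Notch1, which had the highest CPM of the list before scaling by length, are expressed by many cell types. Cdh2 (-0.12, SE 0.0398) and Notch1 (-0.15, SE 0.0437) fell, and Ctnnb1 (0.08) did not pass. Krit1 rose by 0.14 (SE 0.05) on the log2 scale. The counts of this list depended on the libraries used. Without GFP replicate 1, 1 gene was higher and 5 were lower and the median turned to 0.03, without Ezh2-Y726D replicate 2 the median was 0.01, and without GFP replicate 3 or Ezh2-Y726D replicate 3, 2 were higher and 4 lower. Without GFP replicates 2 and 3 together, 2 were higher and 3 lower, as also with thinned counts, and DESeq2 called 2 higher and 5 lower.

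Of 23 genes of the blood-retina barrier and its transport, all tested, 3 were higher and 4 lower, with a median of -0.05. These shares are near those over all genes, 13.9% and 13.6%, so that the genes named here describe single genes and not the barrier list. Lef1, a transcription factor of Wnt signaling, had the largest fall with a log2 fold change of -0.62 (SE 0.154), and the Wnt co-receptor Lrp5 also fell (-0.25, SE 0.0611). The cells that these transcripts came from were not tested. Spock2 (0.28, SE 0.0413), Tspan12 (0.28, SE 0.0799), a partner of the Norrin receptor, and the scaffold Tjp1 (0.16, SE 0.0408) rose. Cav1, the caveolar coat protein, was at 184 ± 4.88 CPM in GFP and 171 ± 2.82 CPM in Ezh2-Y726D (SD, n = 3 each), a log2 fold change of -0.11 (adjusted P = 0.0391 by edgeR quasi-likelihood with Benjamini-Hochberg).

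Among 16 genes of tip, arterial and venous endothelium, 13 were tested, 4 were higher and 1 lower (13.9% and 13.6% over all genes), with a median of 0.06. The gene that fell was Cxcr4, a chemokine receptor that leukocytes also express (log2 fold change -1.28, SE 0.0819). The largest rises were in Slc38a5 (1.14, SE 0.372), at or under 1.20 CPM in every library, the venous factor Nr2f2 (0.33, SE 0.0754) and the arterial ligand Efnb2 (0.305, SE 0.0627). Without GFP replicate 1, without GFP replicate 2 or in DESeq2, 2 of these genes were higher and 1 lower, and without GFP replicates 2 and 3 together 2 were higher and 2 lower. Nrp2, Efnb2 and Ackr1 had the highest CPM of the list before scaling by length. Nrp2, a co-receptor of semaphorins and VEGF-C, had a log2 fold change of 0.06 and did not pass, and Ackr1, a chemokine-binding protein of venules and red cells, was at 24.1 ± 1.71 CPM in GFP and 24.9 ± 0.13 CPM in Ezh2-Y726D (SD, n = 3 each). Of 7 genes of activated endothelium, 4 were tested, and Icam1 (-0.67, SE 0.0669) and Vcam1 (-0.33, SE 0.0457) fell, whereas Sele, Selp and Madcam1 held at most 4 counts in any library and were not tested. Exons of other genes overlap between 11.7% and 25.7% of the exonic bases of Pltp, Angpt1, Ctnnb1, Lef1, Sox17, Icam1 and Ackr1, which makes their counts uncertain.

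**Figure D5:**
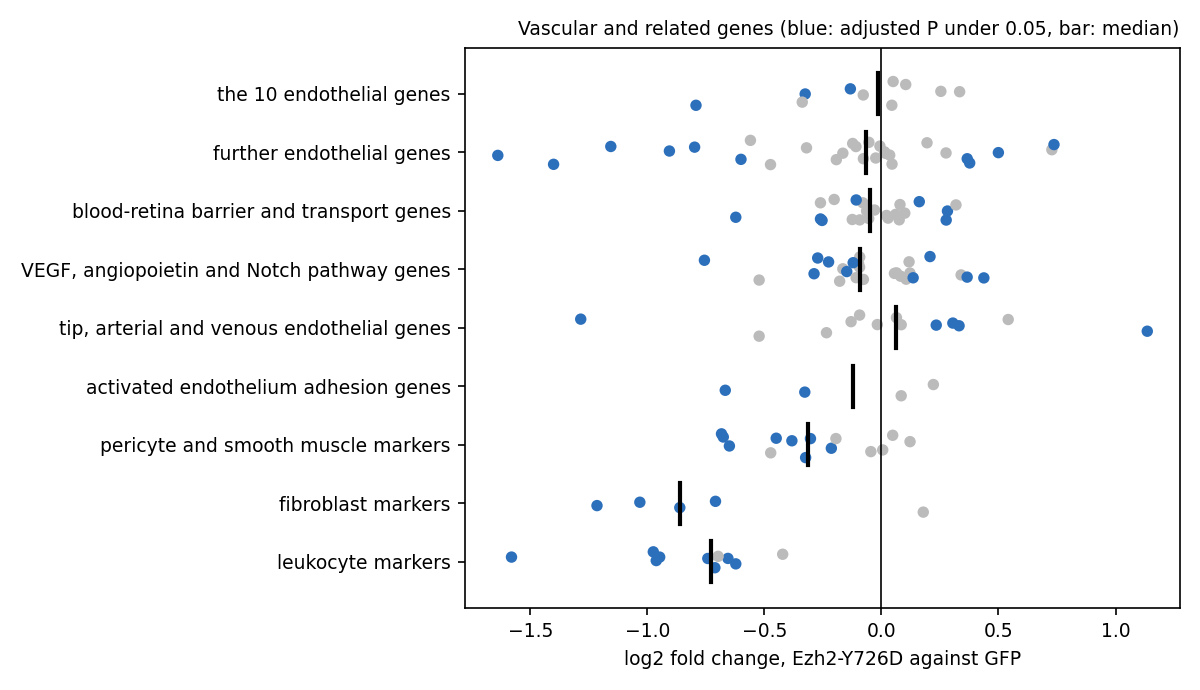
Log2 fold change after Ezh2-Y726D overexpression (horizontal axis) of the tested genes of the 10 endothelial genes and of related lists. Blue points passed an adjusted P under 0.05, grey points did not, and black bars mark medians. The medians of the endothelial lists lie between -0.12 and 0.06, those of pericyte, fibroblast and leukocyte markers at -0.31, -0.86 and -0.73.

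Markers of blood and immune cells, some of which express Pecam1 or Esam, were measured beside the endothelial genes, and their counts stand beside 13.6% lower and 13.9% higher over all genes tested. Of the leukocyte markers, 8 of 10 tested were lower and none was higher, with a median of -0.73, and their summed level was 255 to 279 CPM in GFP and 139 to 164 CPM in Ezh2-Y726D. Ly6c2, Cd8a and Cd3d had the largest falls, and the pan-leukocyte gene Ptprc was at 143 ± 9.25 and 87.0 ± 8.68 CPM (SD, n = 3 each). Of the homeostatic microglia markers, 3 of 8 were lower and 2 higher (3 and 0 without GFP replicate 1 or with thinned counts), with sums of 405 to 455 CPM in GFP and 319 to 376 CPM in Ezh2-Y726D. Platelet and megakaryocyte markers summed to 2.45 to 3.57 CPM in GFP and 2.10 to 2.54 CPM in Ezh2-Y726D. The marker of these that could be tested, Itga2b, was at 1.98 ± 0.851 CPM in GFP and 2.07 ± 0.216 CPM in Ezh2-Y726D (SD, n = 3 each) and did not pass. In 5 of 17 alternatives, which kept other genes for testing, 1 platelet marker was lower. Of those too low to be tested here, Pf4 held 12, 5 and 8 counts in GFP and 1, 0 and 0 counts in Ezh2-Y726D, Clec1b held 4, 0 and 5 counts in GFP and 5, 3 and 6 counts in Ezh2-Y726D, and Ppbp and Treml1 were at 0 counts in 5 of 6 libraries. The part of leukocytes and platelets in the lower levels of Esam and Pecam1 was not tested. With the share of CT010467.1 as a covariate, Esam and Pecam1 had log2 fold changes of -0.81 and -0.38 and both passed the test.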

How the data were processed

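RNA-Seq was performed on 6 libraries, 3 of AAV2-GFP and 3 of AAV2-Ezh2-Y726D, assigned by their column names to the sample labels. The authors deposited raw read counts for each gene as whole numbers, not normalized. The submitters' processing notes name STAR 2.7.0d and GRCm38, and the kit was a stranded total RNA kit. The counting tool, annotation and strand setting are not given in the sources used here.

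Symbols were found for 32325 of 32371 identifiers. Coordinates, exonic lengths and overlaps were taken from GENCODE vM21. Counts were scaled by TMM (factors 0.647 to 1.31) and tested with edgeR 4.0.16 in R 4.3.3 by the quasi-likelihood test after filterByExpr (10 counts, total of 15), and P values were adjusted by Benjamini-Hochberg over all genes kept. The biological coefficient of variation was 0.0442. The SE is the absolute log2 fold change over the root of F. The procedure was tested on simulated counts.

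The 10 genes and all gene lists were chosen with earlier results of these data known. Named were the 10 genes, Ezh2, Thy1 and CT010467.1, the 5 genes closest in pattern with a mean of at least 50 counts, and, of each vascular list, the 3 genes of highest mean CPM, not scaled by length, and up to 3 called genes with the largest change in each direction. Of the other lists, which cover leukocytes, microglia, platelets, erythrocytes, fibroblasts, ganglion, amacrine and bipolar cells, photoreceptors and Müller glia, mainly counts are given. Other genes were named after their values were seen. Some genes that this rule would name are not reported here. DESeq2 1.42.0 served as an alternative test, and the other alternatives are given with their effect in the closing section.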

Additional observations from a re-analysis of the deposited data

How the results depend on the processing

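Each of the 10 genes was recomputed in 17 alternative analyses. Esam was lower in all of them and passed in 16, all except library totals, and Kdr passed in 14 and Pecam1 in 8. Scaling by library totals, which leaves CT010467.1 in the total, moved the median of all genes to 0.49 and left 0 of the 10 genes called lower by edgeR and 0 both called lower and past the fold threshold, and over all genes it called 19 lower and 46 higher. Pecam1, Kdr, Cdh5 and Emcn then had log2 fold changes of 0.18, 0.38, 0.105 and 0.35, which are below that median. Relative to the median of all genes of each analysis, Esam lay between -0.86 and -0.76, Pecam1 between -0.40 and -0.19, Kdr between -0.16 and -0.09 and Flt1 between 0.08 and 0.15. Of the 10 genes, 1 (Flt1) was higher without a filter, with at least 10 counts in every library and with the replicate block.

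Genes near 0 changed sign. Egfl7 was at -0.029 in DESeq2 and -0.255 with counts thinned to the shallowest library, and Cldn5 was at -0.093 with thinned counts and -0.11 with the share of CT010467.1 as a covariate. Without GFP replicates 2 and 3 together, chosen after seeing the data, Cldn5 was at -0.12 and Emcn at 0.04, and 2 of the 10 genes were lower. That fit rests on 1 GFP library, which is assumed to vary like the others. With 1 library left out in turn, 1 to 3 of the genes were lower and 0 to 1 higher, with 1 called lower and past the fold threshold in each fit, Egfl7 ranged from -0.30 to 0.20 and Cldn5 from -0.10 to 0.33. Emcn then ranged from -0.24 to -0.03, Tek from 0.21 to 0.38, Vwf from 0.14 to 0.43 and Cdh5 from -0.46 to -0.25. Of the further endothelial genes, 2 instead of 4 were higher in DESeq2 and with thinned counts, and of the barrier genes 2 instead of 4 were lower with thinned counts. The cause of these shifts was not tested.

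Replicate numbers are shared by the groups, but same-numbered libraries deviated together with correlations of 0.137, 0.051 and 0.039, so the numbers were not taken as pairs. Each GFP library nevertheless correlated best with the Ezh2-Y726D library of its own number. The reverse match was not computed. With the replicate block, Pecam1 no longer passed (adjusted P = 0.0692 in edgeR) and Flt1 did (0.0265), while Esam and Kdr kept their calls. Cldn5, Tek, Cdh5, Vwf, Emcn and Egfl7 held at most 47 counts in GFP replicates 2 and 3, and the 95% interval of each reaches 0.40 or further from 0 on the log2 scale in 1 direction or both.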

Other observations

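Cells of the vessel wall other than endothelium were measured in the same libraries. Of 14 pericyte and smooth muscle markers, all tested, 8 were lower with Ezh2-Y726D and none was higher, beside 13.6% lower and 13.9% higher over all genes tested. Their median was -0.31 on the log2 scale, with sums of 380 to 412 CPM in GFP and 331 to 346 CPM in Ezh2-Y726D. DESeq2 called 4 of them lower, 3 were lower with thinned counts and 5 without GFP replicate 1, and 8 were lower without GFP replicates 2 and 3 together. The median of the list in the first 3 of these was -0.32, -0.37 and -0.28, and the genes called lower over the whole table were 1648, 1666 and 1853 instead of 2463. The largest falls were in Des (-0.68), the intermediate filament of muscle and pericytes, and in Abcc9 (-0.68) and Kcnj8 (-0.65), the channel subunits of the pericyte KATP channel. Rgs5, a pericyte regulator of G protein signaling, was at 119 ± 2.99 CPM in GFP and 91.3 ± 7.25 CPM in Ezh2-Y726D (SD, n = 3 each, adjusted P = 5.26e-07 by edgeR quasi-likelihood with Benjamini-Hochberg). Pdgfrb, the PDGF receptor of pericytes, fell by 0.21. Vtn, which had the highest CPM of these markers before scaling by length, was at 121 ± 4.6 and 117 ± 3.8 CPM and did not pass the test.

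Of 6 fibroblast markers, 5 were tested and 4 were lower (13.6% over all genes), with log2 fold changes of -1.22 for Dcn, -1.03 for Col3a1 and -0.86 for Col1a2. Pdgfra, which retinal astrocytes share with fibroblasts, was at 29.2 ± 1.75 and 33.5 ± 2.84 CPM (SD, n = 3 each) and did not pass. Of the erythrocyte markers, Hba-a1 was higher, at 0.778 ± 0.336 CPM in GFP and 2.20 ± 0.529 CPM in Ezh2-Y726D (SD, n = 3 each, adjusted P = 0.00125 by edgeR quasi-likelihood with Benjamini-Hochberg), whereas Hbb-bs did not pass. GFP replicates 2 and 3 held 4 counts of Hba-a1 each, and with thinned counts 0 erythrocyte markers were higher in edgeR. The near-identical gene Hba-a2 makes the count of Hba-a1 uncertain.

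The shares among the 18138 tested genes were 13.9% higher and 13.6% lower, which the ganglion cell counts are near. Of the remaining lists, 2 of 12 ganglion cell markers were higher, Thy1 among them (0.13, SE 0.046), and 1 was lower, but without GFP replicate 1 or with thinned counts 0 were higher in edgeR. Of the amacrine markers, 7 of 7 tested were higher. Of 8 bipolar markers 7 were lower and 1 higher, and of 10 rod and cone markers 5 were lower and 2 higher, although their summed level was 5625 to 5780 CPM in GFP and 6039 to 6229 CPM in Ezh2-Y726D. Of 10 Müller glia and astrocyte markers 4 were lower and 1 higher.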
